A study of Oryctolagus cuniculus with 9 samples.

Results

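The genes described here encode fibronectin, the integrin subunits, the laminin chains and a nidogen, in cultured HA-VSMC cells given β-estradiol. They were chosen by symbol alone: FN1, names beginning with ITGA or ITGB and a digit, ITGAV, names beginning with LAMA, LAMB or LAMC and a digit, and NID1 or NID2. This found 31 of the 19291 genes in the deposited tables: FN1, 12 integrin α genes, 8 integrin β genes, 8 laminin genes, NID2 and ITGB1BP2. The last of these, melusin, is a muscle protein that binds the β1 integrin tail and is not an integrin; the symbol rule brought it in. Genes that the tables list by an Ensembl identifier only, 5973 in all, were not searched.

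Fibronectin is a secreted dimer that cells stretch into fibrils outside the membrane. Integrins are the receptors that hold such fibrils: each is an α chain paired with a β chain, and the pair decides which matrix protein is bound. Laminins are trimers of an α, a β and a γ chain that form the base of the basement membrane around smooth muscle cells, and nidogens tie the laminin network to collagen IV. In vessel and uterine walls these proteins anchor smooth muscle cells and carry force between cell and matrix.

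RNA had been sequenced from 9 libraries of the HA-VSMC line, 3 each of control cells, cells with 50 nM β-estradiol and cells with 250 nM β-estradiol. Estradiol, the main ovarian estrogen, was dissolved in DMSO and bicarbonate, and cells were harvested 48 h later; all groups grew in RPMI1640 with serum. The stated protocol names 250 nM only, the control samples carry "estrogen" as their treatment and WT as its concentration, and no label says whether the controls received DMSO. The labels give the rabbit as the species, and the identifiers in the tables are rabbit Ensembl ones. HA-VSMC is, however, a name in common use for human aortic smooth muscle cells, and the species of the reads was not tested here. Were they not rabbit reads, genes at 0 and levels compared between genes would also depend on how well each gene matched. The study asks by which pathway estrogen acts in adenomyosis, where endometrium grows into the uterine muscle. All libraries come from a single line. No label says that replicates were grown apart, and the p-values therefore rest on a spread between libraries that could be technical. The labels name a small RNA kit for these mRNA libraries.

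Libraries held 54718407 to 72274464 count units, about 13679602 to 18068616 fragments at roughly 4 units a fragment. Levels within a gene are given as CPM (count units scaled to a common library size with TMM factors), and levels between genes as the authors' FPKM (fragments scaled by gene model length and library size). TMM factors were 1.009 to 1.029 in the control, 0.972 to 0.997 at 50 nM and 0.987 to 1.002 at 250 nM. Differences from the control are therefore higher in CPM than in FPKM. On log2(FPKM + 1) the median difference of all genes from the control was -0.051 at 50 nM and -0.04 at 250 nM. Of 12 smooth muscle markers 10 were listed; ACTA2 averaged 1286 FPKM and MYH11 5.18 FPKM, while DES was at 0. The summed FPKM of the smooth muscle markers was 3641 to 3846 at 50 nM and 3744 to 3788 at 250 nM, against 3711 to 3957 in the control. None of 10 endothelial markers reached a mean of 1 FPKM, and KDR was at 0. Of 8 epithelial markers listed only KRT14 did (EPCAM and ESRP1 were at 0), and of 9 leukocyte markers only LCP1 and CORO1A did (ITGAM was at 0). All 8 fibroblast markers were listed, none at 0 and 7 with a mean of at least 1 FPKM. Their summed level, mostly collagen mRNA, was 6346 to 6680 FPKM at 50 nM and 6446 to 6659 FPKM at 250 nM, against 5821 to 6062 FPKM in the control.

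Fibronectin mRNA stood far above every other member. FN1 ranked first of all genes by CPM in all 9 libraries, and between places 3 and 5 by FPKM, where its length is taken into account. Its level was 7596 ± 706 FPKM in the control, 8424 ± 283 FPKM at 50 nM and 8188 ± 256 FPKM at 250 nM (SD, n = 3 each). The next member, ITGB1, which encodes the β1 chain shared by most matrix-binding integrins, averaged 586 FPKM over all libraries.

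**Figure D1:**
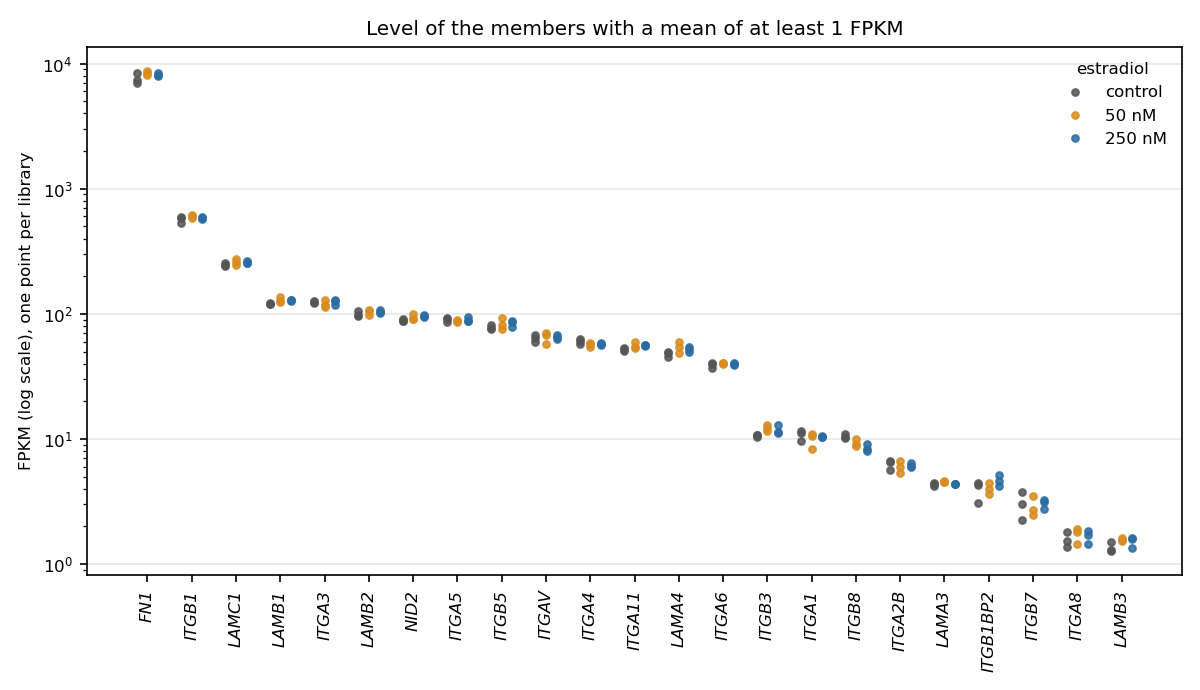
FPKM of the 23 members with a mean of at least 1 FPKM, on a log scale, with 1 point per library (grey control, orange 50 nM, blue 250 nM). FN1 averaged 8069 FPKM and ITGB1 586 FPKM; the points of the 3 groups lie close together beside the spread between genes.

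Among the 12 α chains, 6 made up most of the mRNA. ITGA3, whose protein binds laminins with β1, was the highest at 123 FPKM over all libraries. ITGA5, the α chain of the main fibronectin receptor, followed at 89.0 FPKM. ITGAV, which binds the RGD motif of fibronectin and vitronectin with several β chains, averaged 64.8 FPKM, and ITGA4, which binds an alternatively spliced part of fibronectin, 58.2 FPKM. ITGA11, a collagen receptor chain of mesenchymal cells, averaged 54.5 FPKM, and ITGA6, another laminin receptor chain, 39.7 FPKM. ITGA3, ITGA5 and ITGA6 did not overlap with any other α gene in their levels. ITGAV and ITGA4 overlapped (57.1 to 70.8 FPKM and 54.1 to 62.5 FPKM over the 9 libraries), and so did ITGA4 and ITGA11 (50.5 to 59.2 FPKM). As shares of the summed α mRNA, ITGA3 held 27.7% ± 0.76 in the control, 27.1% ± 2.14 at 50 nM and 27.5% ± 0.855 at 250 nM (SD, n = 3 each). ITGA5 held 20.1% ± 0.823, 19.7% ± 0.261 and 19.9% ± 0.621 in the same order.

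The other α chains were lower. ITGA1, a collagen and laminin receptor chain, averaged 10.4 FPKM, ITGA2B, best known from platelets, 6.15 FPKM, and ITGA8, an RGD-binding chain of smooth muscle and mesangial cells, 1.65 FPKM. ITGA10, ITGA2 and ITGA7 were below 1 FPKM (0.424, 0.122 and 0.0414 FPKM). ITGA7 is the laminin receptor chain typical of differentiated muscle, and its count lay between 4 and 21 units per library, so that single fragments move its value.

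ITGB1 held 84.8% ± 0.444 of the summed β mRNA in the control, 84.8% ± 0.722 at 50 nM and 84.5% ± 0.523 at 250 nM. ITGB5, which pairs with αv, averaged 81.9 FPKM. ITGB3, the other vitronectin receptor partner of αv, averaged 11.5 FPKM, and ITGB8, which with αv activates latent TGF-β, 9.41 FPKM. ITGB7, known from lymphocytes, averaged 2.98 FPKM, and ITGB4, the hemidesmosome chain of epithelia, 0.0906 FPKM. ITGB2, the leukocyte chain, had 13 units in 250 nM replicate 1 and 0 in the other 8 libraries. ITGB6, an epithelial chain, was at 0 in all 9; a count of 0 allows up to 0.166 to 0.219 CPM per library (3 fragments, counting error only). Summed over all listed genes, β mRNA was 1.43 to 1.63 times α mRNA by FPKM in the 9 libraries.

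The laminin genes listed were 4 α, 3 β and 1 γ chain. LAMC1, the γ1 chain found in most laminins, was the highest at 255 FPKM. LAMB1 and LAMB2 averaged 126 and 102 FPKM and did not overlap (119 to 136 FPKM and 95.9 to 108 FPKM). LAMA4, the α chain of vascular and muscle basement membranes, averaged 51.5 FPKM and held 91.7% ± 0.204 of the listed laminin α mRNA in the control, 92.2% ± 0.828 at 50 nM and 92.2% ± 0.291 at 250 nM. LAMA3, an α chain of epithelial laminins, averaged 4.42 FPKM, and its partner LAMB3 1.48 FPKM. LAMA1 and LAMA2 were near 0. NID2 averaged 93.0 FPKM, and ITGB1BP2 4.2 FPKM.

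**Figure D2:**
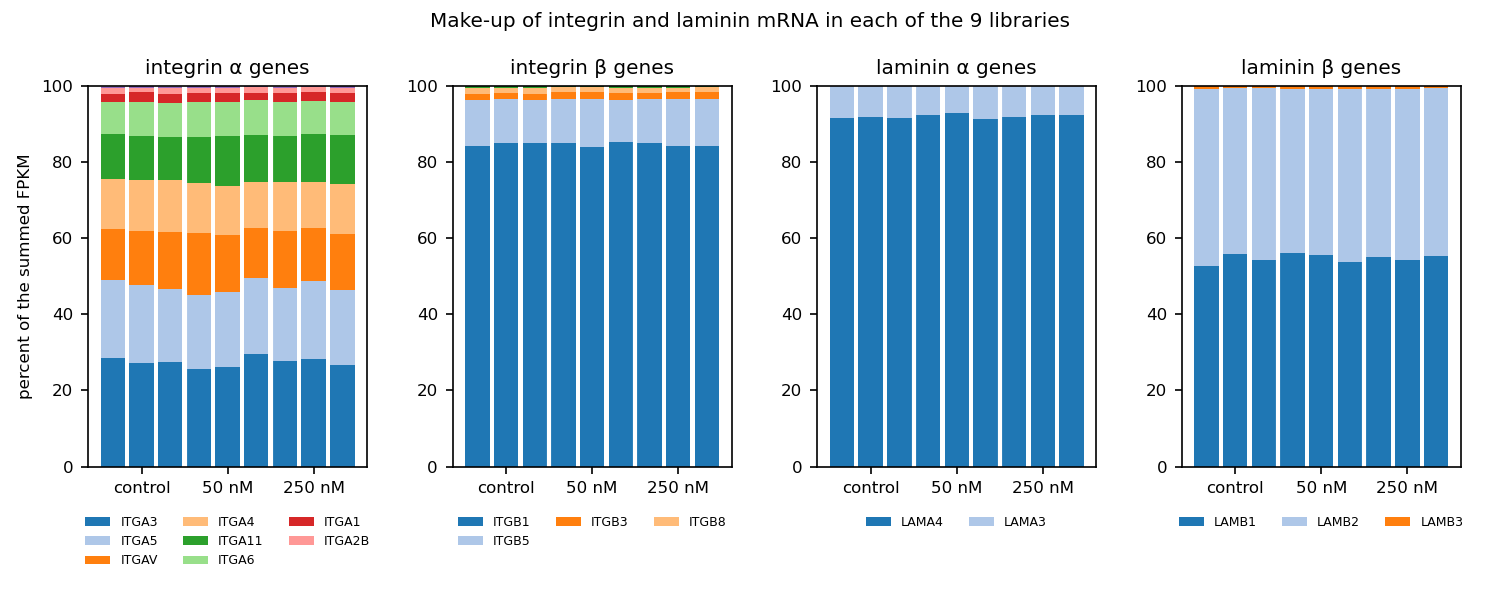
Percent of the summed FPKM that each gene held among the listed integrin α, integrin β, laminin α and laminin β genes, with 1 bar per library and genes under 0.5% left out of the key. ITGB1 held 84.0% to 85.3% of the β mRNA and LAMA4 91.3% to 92.9% of the laminin α mRNA in every library.

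Whether the lower concentration changed these genes was asked by setting the 50 nM libraries against the control. None of the 29 members with enough counts to be tested passed (edgeR quasi-likelihood test, adjusted p under 0.05 over 12324 genes), against 3.25% of all genes tested (1.55% higher and 1.7% lower). At an unadjusted p under 0.05 there were 10 members (34.5%), all higher at 50 nM, against 15.6% of all genes in either direction, 7.44% higher and 8.17% lower. limma-voom called 0 members and DESeq2 2, ITGB3 and LAMA4, out of 3.05% and 5.70% of all genes called. The libraries of both groups did not overlap for 9 members (31.0%), against 19.0% of all genes. Of these 8 were higher at 50 nM, against 8.88% of all genes, and ITGA10 was lower, against 10.1%. LAMA1 is counted in the 10, the 9 and the 8. It met the count minimum only through its 50 nM libraries, so the filter fixed its direction. Of all 401 genes called 191 were higher; on log2(FPKM + 1), where the median of all genes was -0.051, 98 of 389 were higher.

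FN1 had 70376, 74531 and 68143 CPM at 50 nM, against 56841, 68913 and 59591 CPM in the control. Control replicate 2 lay inside the 50 nM range, and the other controls lay below it. FN1 was 1.15-fold higher at 50 nM (log2 fold change 0.20 ± 0.06, SE; unadjusted 95% interval 0.08 to 0.32) and did not pass (edgeR adjusted p = 0.079). The call turned on single libraries: without control replicate 2 the value was 0.29 (edgeR adjusted p = 0.00204), and without 50 nM replicate 3 it was 0.23 (edgeR adjusted p = 0.0481). With other libraries left out the value fell as low as 0.14, and the edgeR adjusted p rose as high as 0.271.

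ITGB3 had 48.9, 53.1 and 45.8 CPM at 50 nM, against 41.4, 42.0 and 40.4 CPM in the control, with no overlap. Its log2 fold change was 0.26 ± 0.07 (95% interval 0.10 to 0.41, edgeR adjusted p = 0.0792), and 0.31 without 50 nM replicate 3 (edgeR adjusted p = 0.0341). Other omissions of a library took it as low as 0.20, and the edgeR adjusted p as high as 0.296. ITGB1 had 1598, 1632 and 1518 CPM at 50 nM, against 1355, 1520 and 1473 CPM in the control (0.13 ± 0.05, edgeR adjusted p = 0.238). ITGB5 had 282, 322 and 260 CPM at 50 nM, against 252, 275 and 254 CPM in the control (0.15 ± 0.07, edgeR adjusted p = 0.365). For ITGB1 and ITGB5 a 50 nM library lay inside the control range. ITGB8 had 29.7, 27.4 and 26.2 CPM at 50 nM, against 29.0, 29.9 and 31.4 CPM in the control (-0.12 ± 0.07, edgeR adjusted p = 0.503), and was the only β gene of at least 10 CPM with a negative value.

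ITGA3 had 505, 538 and 578 CPM at 50 nM, against 546, 534 and 537 CPM in the control, so that the 50 nM libraries lay on both sides of the controls. The difference was 0.00 ± 0.06 on the log2 scale (95% interval -0.12 to 0.13). ITGA5 had 520, 547 and 530 CPM at 50 nM, against 533, 549 and 507 CPM in the control (0.01 ± 0.05, 95% interval -0.11 to 0.12). ITGAV had 235, 229 and 188 CPM at 50 nM, against 190, 207 and 217 CPM in the control (0.09 ± 0.08, 95% interval -0.08 to 0.25). Of the 12 α genes 7 had values above 0, and their median was 0.01; on log2(FPKM + 1) ITGA3 was at -0.05 and ITGA5 at -0.04. ITGA11, named here after its values were seen, had 516, 574 and 502 CPM at 50 nM, against 488, 488 and 464 CPM in the control, with no overlap (0.14 ± 0.06, edgeR adjusted p = 0.215).

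All 8 laminin genes had values above 0 at 50 nM in the count fit, and none passed. Their median log2 fold change of 0.19 counts LAMA1 (3.44) and LAMA2. Those of at least 5 CPM ran from 0.11 (LAMB2) to 0.26 (LAMB3). On log2(FPKM + 1) the 6 of at least 5 CPM were also above 0, while LAMA1 and LAMA2 fell under the FPKM minimum. Both rest on few counts, and LAMA2 (0.23 ± 0.76) ran from -0.02 to 0.43 under alternatives. LAMA4 had 401, 448 and 358 CPM at 50 nM, against 322, 360 and 348 CPM in the control. 50 nM replicate 3 lay inside the control range, and the fold change was 0.23 ± 0.07 (95% interval 0.07 to 0.39, edgeR adjusted p = 0.118). Without that library the value was 0.31 and passed (edgeR adjusted p = 0.016). Other omissions of a library took it as low as 0.14, and the edgeR adjusted p as high as 0.418. LAMB1 had 813, 884 and 787 CPM at 50 nM, against 737, 768 and 730 CPM in the control, with no overlap (0.15 ± 0.05, edgeR adjusted p = 0.149). LAMC1 had 981, 1091 and 1024 CPM at 50 nM, against 910, 989 and 935 CPM in the control (0.13 ± 0.05, edgeR adjusted p = 0.246), and LAMB2 561, 623 and 596 CPM at 50 nM, against 579, 535 and 539 CPM in the control (0.11 ± 0.06, edgeR adjusted p = 0.383). Both overlapped the controls in 1 library. NID2 had 385, 428 and 382 CPM at 50 nM, against 352, 373 and 354 CPM in the control, with no overlap (0.15 ± 0.06, edgeR adjusted p = 0.199). In LAMA4, LAMB1, LAMB2, LAMC1, NID2, FN1 and the 3 highest β genes, 50 nM replicate 2 was the highest of the 50 nM libraries. The fibroblast marker sum given above was also higher at 50 nM; its part in these values was not tested.

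**Figure D3:**
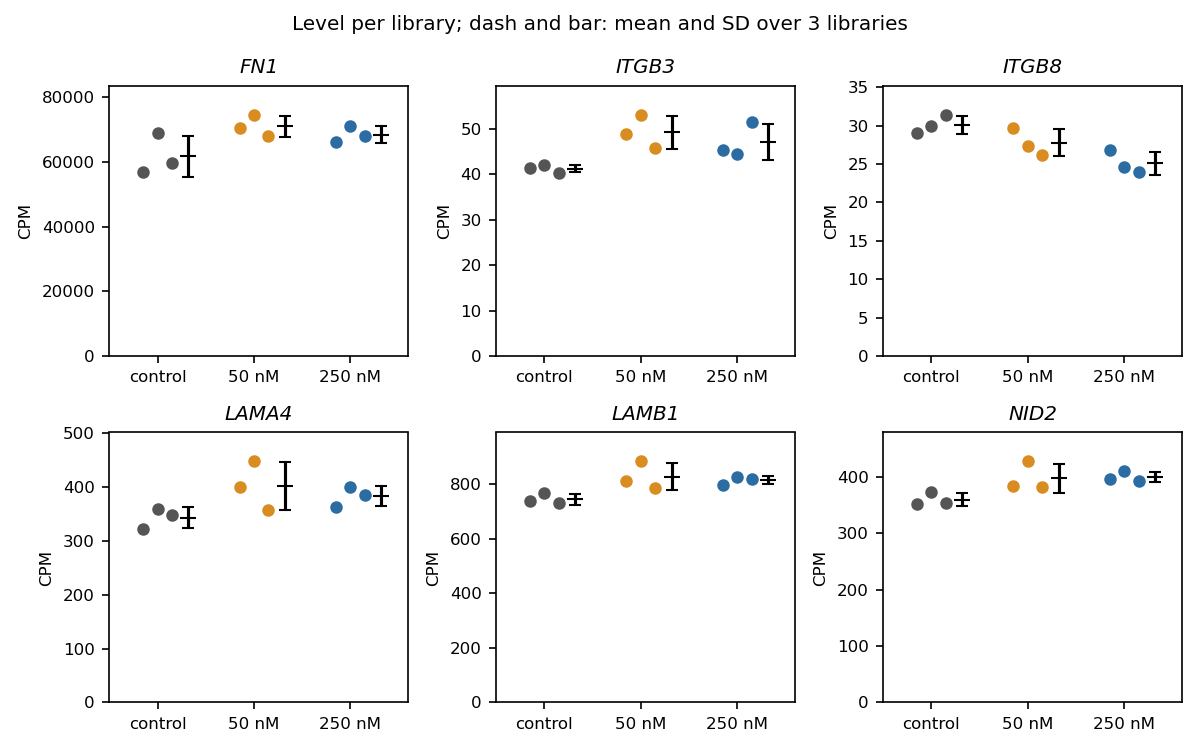
CPM of FN1, ITGB3, ITGB8, LAMA4, LAMB1 and NID2 in each library, with axes from 0; the dash and bar give the mean and SD of 3 libraries. ITGB3, LAMB1 and NID2 separated both estradiol groups from the control, and FN1 overlapped through control replicate 2 (68913 CPM). The mean of ITGB8 was lowest at 250 nM, where its libraries lay below the controls but overlapped those at 50 nM.

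LAMA1, the α chain of embryonic and epithelial basement membranes, had 12, 12 and 18 units at 50 nM, against 0, 4 and 0 units in the control. These are about 10 fragments against 1, a ratio of 10.8 with an exact 95% interval of 1.54 to 470 that covers counting error only. The test did not call it (edgeR adjusted p = 0.129). LAMA1 met the count minimum only through its 50 nM libraries. The filter thus fixed its direction, and neither the ratio nor the test can say whether it rose. LAMA2, the chain of mature muscle laminin, had 16, 18 and 10 units at 50 nM, against 16, 8 and 18 units in the control (edgeR adjusted p = 0.937).

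The share of members above 0 has to be read beside their abundance. At 50 nM 21 of 29 members (72.4%) had values above 0, with a median of 0.12, against 49.4% of all genes tested and a median of 0. The 21 include LAMA1, whose direction the filter fixed. Abundant genes leaned the same way: of 1694 genes of at least 100 CPM, 65.6% were above 0 at 50 nM, and of 467 genes of at least 300 CPM, 74.5%. The members at these levels numbered 13 of 14 and 10 of 10, with medians of 0.13 and 0.14, against medians of 0.03 and 0.05 for all genes of those levels. Both counts include ITGA3 at 0.00 ± 0.06 and ITGA5 at 0.01 ± 0.05. Their signs carry little weight: under alternatives they ran from -0.05 to 0.05 and from -0.05 to 0.03. Both CPM limits were set after the data had been seen.

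The same was asked of the higher concentration. The controls are those of the comparison above, so that the values are not independent. Of 29 members 0 passed (edgeR quasi-likelihood test, adjusted p under 0.05), against 0.308% of all genes tested, and DESeq2 (1.14% of all genes) and limma-voom (0.292%) also called 0. An unadjusted p under 0.05 was reached by 7 members (24.1%), against 8.67% of all genes. Of these 6 were higher, against 3.97% of all genes, and ITGB8 was lower, against 4.71%. Groups did not overlap for 9 members (31.0%), against 15.5% of all genes; 7 were higher (7.75% of all genes) and 2, ITGA10 and ITGB8, lower (7.76%).

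ITGB8 had the lowest p of the members here. It had 26.8, 24.6 and 23.9 CPM at 250 nM, against 29.0, 29.9 and 31.4 CPM in the control, with no overlap. The log2 fold change was -0.26 ± 0.07 (95% interval -0.42 to -0.10, edgeR adjusted p = 0.218). Its share of the β mRNA was 1.22% ± 0.0899 at 250 nM and 1.31% ± 0.0763 at 50 nM, against 1.56% ± 0.071 in the control (SD, n = 3 each). ITGB3 lay on the other side, with 45.3, 44.5 and 51.6 CPM at 250 nM, all above the controls (0.19 ± 0.07, 95% interval 0.04 to 0.35, edgeR adjusted p = 0.43). ITGB1 had 1525, 1513 and 1554 CPM at 250 nM (0.08 ± 0.05, edgeR adjusted p = 0.752) and ITGB5 269, 294 and 301 CPM (0.15 ± 0.07, edgeR adjusted p = 0.626), both overlapping the controls.

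NID2 had 397, 411 and 394 CPM at 250 nM, all above the controls, whose highest library had 373 CPM (0.15 ± 0.06, edgeR adjusted p = 0.394). FN1 had 66136, 71222 and 67969 CPM, with control replicate 2 inside that range. Its log2 fold change was 0.15 ± 0.06 (95% interval 0.02 to 0.27, edgeR adjusted p = 0.448), and 0.23 without control replicate 2, which passed (edgeR adjusted p = 0.0394). Other omissions of a library took it as low as 0.09, and the edgeR adjusted p as high as 0.873. LAMA4 had 363, 400 and 386 CPM at 250 nM, LAMB1 798, 827 and 820 CPM, and LAMC1 995, 1038 and 1009 CPM, each above every control. Their log2 fold changes were 0.16 ± 0.07, 0.13 ± 0.05 and 0.10 ± 0.05 (edgeR adjusted p of 0.474 or higher). LAMB2 overlapped the controls, with 572, 610 and 584 CPM (0.10 ± 0.06, edgeR adjusted p = 0.694).

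ITGA3 had 555, 578 and 525 CPM at 250 nM, ITGA5 523, 569 and 532 CPM, and ITGAV 221, 209 and 216 CPM. All overlapped the controls, with log2 fold changes of 0.04 ± 0.06, 0.03 ± 0.05 and 0.07 ± 0.08; on log2(FPKM + 1) ITGA3 was at 0.00 and ITGA5 at -0.01. In all, 23 of 29 members (79.3%) had values above 0, against 48.2% of all genes tested, 61.6% of those of at least 100 CPM and 70.9% of those of at least 300 CPM. The members of these levels above 0 were again 13 of 14 and 10 of 10, with ITGA3 and ITGA5 counted among them in the count fit. LAMA1 had 0, 4 and 4 units at 250 nM and LAMA2 0, 12 and 8, too few to compare with the controls.

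**Figure D4:**
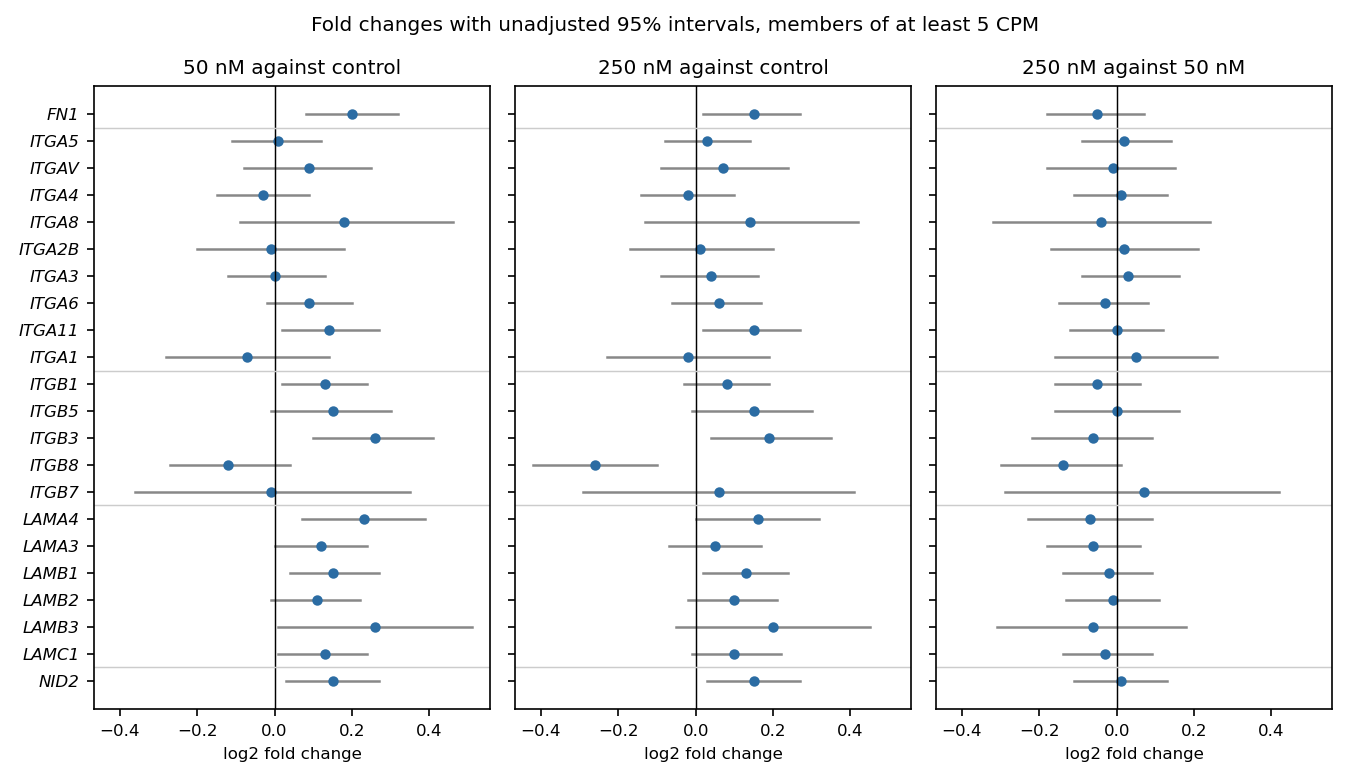
Log2 fold change of the 22 members with a mean of at least 5 CPM in each comparison, with unadjusted 95% intervals (points and grey lines), ordered as FN1, α, β, laminin and nidogen genes. The interval lies above 0 for 9 members at 50 nM and for 6 at 250 nM against the control (LAMA4 only just), below 0 for ITGB8 at 250 nM, and includes 0 for all 22 between the concentrations.

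The comparison of 250 nM with 50 nM asked whether the concentrations differed from each other. Of 29 members 0 passed in edgeR, DESeq2 and limma-voom, against 0.325%, 0.803% and 0.325% of all genes. An unadjusted p under 0.05 was reached by 1 member, LAMA1, against 5.68% of all genes (3.01% higher and 2.67% lower). Of 29 members 12 (41.4%) were above 0, against 48.8% of all genes. LAMA1 had about 2 fragments at 250 nM and 10 at 50 nM, a ratio of 0.185 (exact 95% interval 0.0197 to 0.868, counting error only, edgeR adjusted p = 0.75). It was tested only because its 50 nM libraries met the count minimum. Its p, ratio, sign and lack of overlap in this comparison therefore carry no weight. The log2 fold change was -0.14 ± 0.07 for ITGB8 (95% interval -0.30 to 0.01), -0.05 ± 0.06 for FN1 (-0.18 to 0.07), -0.07 ± 0.07 for LAMA4 (-0.23 to 0.09) and -0.06 ± 0.07 for ITGB3 (-0.22 to 0.09). LAMA2 had a value of -1.24 ± 0.82 on 18 units or fewer per library (edgeR adjusted p = 1). All 8 laminin genes were below 0 at 250 nM against 50 nM (median -0.06), but the values were small: without 50 nM replicate 2, LAMA4 was at 0.01, LAMB1 at 0.03, LAMB2 at 0.03 and LAMC1 at 0.02. LAMB3 was at 0.02 without 250 nM replicate 3, and LAMB2 at 0.01 without 250 nM replicate 1 and at 0.00 on log2(FPKM + 1). Groups did not overlap for 3 members (10.3%), ITGA6, LAMA1 and LAMA3, all lower at 250 nM, against 11.5% of all genes (5.94% higher and 5.57% lower).

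The F test for any difference among the 3 groups called 0 of 29 members (edgeR), against 1.86% of all genes tested. An unadjusted p under 0.05 was reached by 8, against 12.0%, and these include LAMA1, tested only through its 50 nM libraries. The lowest adjusted p values were 0.184 for ITGB3, 0.186 for FN1 and 0.194 for ITGB8. The size of change that these data allow was small for the well-covered members. Over the 22 members of at least 5 CPM, the unadjusted 95% intervals reached no higher than 1.42-fold at 50 nM and 1.36-fold at 250 nM (both LAMB3), and no lower than 0.779-fold (ITGB7) and 0.748-fold (ITGB8). Members of few counts could be bounded far less tightly, such as ITGA7 (upper bound 3.98-fold at 50 nM) and LAMA1 (58.2-fold at 50 nM and 14.3-fold at 250 nM).

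Genes that work beside these were taken from lists drawn up by function, with earlier results of these data already known. The shares of all genes given beside them are therefore context and not a test of the lists. Of 32 focal adhesion and integrin signalling genes tested, NEDD9 and TLN2 rose at 50 nM and 0 fell, against 1.55% of all genes tested higher and 1.7% lower. NEDD9, a docking protein phosphorylated when integrins engage, had 286 ± 26.1 CPM at 50 nM, against 188 ± 13.9 CPM in the control (0.61 ± 0.07, edgeR adjusted p = 0.000325). TLN2, a talin that joins β integrin tails to actin, had 77.2 ± 4.41 CPM at 50 nM, against 63.2 ± 1.37 CPM in the control (0.29 ± 0.06, edgeR adjusted p = 0.0209). The call of TLN2 was lost without control replicate 3 (edgeR adjusted p = 0.106), 50 nM replicate 1 (0.08) or 50 nM replicate 2 (0.0936), and on the FPKM scale; in a fit of these 2 groups only it lay just under the threshold. At 250 nM NEDD9 alone of the list rose, against 0.203% of all genes higher, with 249 ± 15.2 CPM (0.41 ± 0.07, edgeR adjusted p = 0.0262). That call was lost without control replicate 1 (0.123) or 3 (0.173), without 250 nM replicate 2 (0.143) or 3 (0.202), and on the FPKM scale. The list's median was 0.07 at 50 nM and 0.06 at 250 nM.

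The same background of 1.55% higher and 1.7% lower at 50 nM applies to the lists that follow, and at 250 nM 0.203% higher and 0.105% lower. Of 22 genes listed as other integrin ligands of the matrix, not all are such ligands, FNDC3A and FNDC3B among the exceptions. TGFBI of this list, a secreted protein that binds integrins and collagens, rose at 50 nM. It had 5517 ± 102 CPM, against 4851 ± 134 CPM in the control (0.19 ± 0.04, edgeR adjusted p = 0.0209). The call was lost without control replicate 3 (edgeR adjusted p = 0.112), 50 nM replicate 1 (0.0502) or 50 nM replicate 2 (0.0615), in a fit of these 2 groups only (0.0933), and on log2(FPKM + 1) in limma (0.206). At 250 nM 0 of the 22 passed; the median was 0.11 at either concentration. Of 27 genes listed as other basement membrane genes and laminin receptors, 0 passed at either concentration (medians 0.03 at 50 nM and 0.04 at 250 nM). That list held collagen IV genes, but also genes that are neither, such as LAMTOR1. Of 19 integrin partners at the membrane, SDC4 and ICAM1 rose at 50 nM. SDC4, a syndecan that binds fibronectin beside α5β1, had 62.4 ± 6.59 CPM at 50 nM and 53.1 ± 4.30 CPM at 250 nM, against 33.0 ± 4.03 CPM in the control. It passed at both concentrations (edgeR adjusted p = 5.88e-05 and 0.00492), the second not without 250 nM replicate 3 (0.0534) or on unfiltered log2(FPKM + 1) in limma (0.137). ICAM1, a ligand of β2 integrins, had 449 ± 3.62 CPM at 50 nM, against 361 ± 23.2 CPM in the control (0.32 ± 0.05, edgeR adjusted p = 0.00394). No gene of these lists passed between 250 nM and 50 nM.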

How the data were processed

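Estimated counts and FPKM, as the authors deposited them, were read for each gene in 9 libraries. Trim Galore, TopHat2 2.1.1, Cufflinks and Cuffdiff are named in the submitters' processing notes. Build, annotation and strand setting were not given in the sources used here; counts of overlapping, antisense or near-identical genes may therefore be mixed. The deposited counts are whole numbers that pile up at 4, 8 and 12, so about 4 units were taken as 1 fragment. Being whole, they needed no rounding for edgeR 4.0.16 (R 4.3.3): filterByExpr (minimum count 10; 12324 genes), TMM, quasi-likelihood tests on all 9 libraries and Benjamini-Hochberg adjustment over all genes. SE is the fold change over the root of its F value, and 95% intervals are unadjusted. All 31 symbols are in the RefSeq gene table of mOryCun1.1, used for names only. Replicates of a group differed by more than counting noise (chi-square over degrees of freedom of 3.08 or more).

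Full values are given for FN1, the 3 highest α, β and laminin genes by FPKM, and the 3 members of lowest p per comparison; other members named with values were chosen after these were seen. Members, lists and markers were chosen with earlier results of these data known. Alternatives were DESeq2 1.42.0, limma-voom (limma 3.58.1), upper-quartile or RLE factors, a minimum of 5 CPM in 3 libraries or no filter, the 2 groups compared only, counts divided by 4, the replicate number as a block, limma on log2(FPKM + 1) or log2(FPKM + 0.1) with at least 1 FPKM in 3 libraries or no filter, and leaving out each library. Counts by sign, and for genes of at least 100 and 300 CPM, were added once the data were known.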

Additional observations from a re-analysis of the deposited data

How the results depend on the processing

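At 50 nM against the control, where 0 members passed, DESeq2 called 2 (ITGB3 and LAMA4), no filter 1 (FN1), and the replicate block 2 (FN1 at an edgeR adjusted p of 0.00429 and LAMA4 at 0.0482) and 1 in the F test; leaving out 1 library gave 0 to 3 members there, 0 to 1 at 250 nM and 0 to 1 in the F test. Between the concentrations every alternative gave 0. The replicate numbers are not known to pair the libraries: deviations of same-numbered libraries correlated at -0.032 to 0.036. Of 1496 member values under alternatives 10 gained a call, all of FN1, ITGB3 or LAMA4, and 91 changed sign, none of them called; among members of at least 5 CPM their reported values were at most 0.07 in size and the changed ones at most 0.18. Signs of FN1, NID2, ITGB1, ITGB3, ITGB5, ITGB8 and the laminin genes of at least 5 CPM held in every alternative against the control. Members above 0 numbered 16 to 23 at 50 nM and 17 to 25 at 250 nM. The number of members tested differed between alternatives, so these counts cannot be compared as shares. The lowest, 16 and 17, came from the filtered FPKM fits, where members of low FPKM dropped out. Over all genes, 50 nM called 401; DESeq2 called 702, the 2 groups alone 244 and log2(FPKM + 1) without a filter 234, and leaving out 1 library 187 to 564. At 250 nM, with 38, these were 140 in DESeq2, 14 and 15 on log2(FPKM + 1) and log2(FPKM + 0.1), 4 on unfiltered log2(FPKM + 1), and 5 to 25. Between concentrations, with 40, they were 99 in DESeq2, 11 on unfiltered log2(FPKM + 1), and 21 to 50. The causes were not tested. Depth limits ITGA2, ITGA7, ITGB4, LAMA1 and LAMA2, at 56 units or fewer per library.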

Other observations

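The α chains of leukocyte integrins, which the symbol rule leaves out, were also listed. ITGAD, the αD chain that pairs with β2, had 5.37 ± 1.45 CPM at 50 nM and 5.16 ± 1.14 CPM at 250 nM, against 3.67 ± 0.333 CPM in the control (SD, n = 3 each). It did not pass (edgeR adjusted p = 0.155 and 0.446), and its partner ITGB2 had units in only 1 of 9 libraries. ITGAE averaged 2.39 to 2.67 CPM and ITGAL 0.204 to 0.266 CPM over the groups. ITGAM and ITGAX were at 0 in all libraries. Of the 5 genes 3 were tested and 0 passed in any comparison.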
